A study of Mus musculus with 6 samples.

Results

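Hypogonadotropic hypogonadism, in which the gonads fail for lack of gonadotropin-releasing hormone (GnRH) drive, has been linked to mutations in many genes, and 10 of them, chosen by name, were followed here: the prokineticin receptor gene *Prokr2* and its ligand gene *Prok2*, the FGF signaling modulators *Il17rd*, *Flrt3*, *Spry4* and *Dusp6*, the heparan sulfate enzyme gene *Hs6st1*, and *Chd7*, *Nsmf* and *Wdr11*. Of the 10 genes, 9 were among the 13886 genes of the expression table, and *Prok2* was not listed and was not analysed here. The data are RNA-seq libraries of RNA bound to tagged ribosomes in *Kiss1* cells of the medial amygdala (MeA) of female KissRibo mice. These mice had the genotype Kiss1Cre+/Rpl22HA+/+, in which Cre expressed from *Kiss1* puts a hemagglutinin (HA) tag on the ribosomal protein RPL22, and an antibody to the tag pulls down (IP) ribosomes with their mRNA. The ovaries of the 12 females in each group had been removed at 8 weeks, and all then had estradiol (E2) for 4 days as a priming treatment, ended by 7 days without it. The OVX group then received no E2 and the E2 group received E2 for 5 days. Each group gave 3 libraries, each from a pool of MeA micropunches of 4 brains.

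The comparison of E2 with OVX asked which mRNAs in MeA *Kiss1* cells differ with sex steroid. Values are log2 CPM, that is, read counts scaled to the library's size, differences are E2 minus OVX, and a gene was called when its limma p, adjusted over all 13886 genes, was under 0.05. By scaled library size, the 3 OVX libraries had 28.1M to 34.2M reads and the 3 E2 libraries 30.3M to 34.0M. *Kiss1*, the gene that drives the tag, was listed as a pair of gene models, and the model with the higher level (ENSMUSG00000115958) had 1.75 ± 0.59 in OVX and 3.66 ± 0.19 in E2 (SD, n = 3 each; adjusted p = 0.00475). Summed CPM of 6 neuron markers was 3993 to 4224 in OVX and 3973 to 4346 in E2. Markers of other cells were also present, with 6 oligodendrocyte lineage genes at 1266 to 1926 CPM, 6 astrocyte genes at 527 to 809 CPM and 6 microglia genes at 92.3 to 120 CPM over the 6 libraries. Markers of glia were therefore not at 0 in these IP libraries, and no library of input RNA or of Cre-negative mice was used here to set a background. P-values measure the spread between pools of animals.

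PROKR2 is a G protein-coupled receptor for the secreted peptides PROK1 and PROK2. Signaling through it is needed in development for the olfactory bulbs and for GnRH neurons to reach the hypothalamus, which is why its loss links hypogonadism with a lost sense of smell. FGF8 acts on FGFR1 in the same development, with heparan sulfate as a co-factor. The proteins SPRY4, DUSP6, IL17RD and FLRT3 are made in FGF-responsive tissues, where SPRY4, DUSP6 and IL17RD restrain the ERK pathway and FLRT3 binds FGF receptors.

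*Prokr2* was the only one of the 9 listed genes past the threshold, so the 250 bases before its start are shown. They come from the RefSeq table for GRCm38.p6, where they lie at chr2:132385448-132385697 on the minus strand, and are written in the direction of transcription. Capitals mark AGGTCA, the six-base unit that occurs as an inverted repeat in an estrogen response element.

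Prokr2: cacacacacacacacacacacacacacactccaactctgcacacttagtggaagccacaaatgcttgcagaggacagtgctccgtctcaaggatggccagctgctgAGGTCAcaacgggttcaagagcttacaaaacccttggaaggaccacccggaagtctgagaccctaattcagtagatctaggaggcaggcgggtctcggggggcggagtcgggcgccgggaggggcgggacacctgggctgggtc

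The AGGTCA match was 144 to 139 bases before the start. AGGTCA or its reverse complement TGACCT was found in 14.0% of the 32851 promoter windows of this length, so a match is common. The complete palindrome GGTCANNNTGACC, found in 0.0639% of windows, was not in this one. The ETS core CCGGAAGT, bound by factors of the ETS family, was present 98 to 91 bases before the start. It was held on either strand by 2.88% of windows. A window was available for 7 of the 10 genes, and *Prokr2* was the only one of them with a match to any of these letters. A match in the letters does not show that a factor binds there.

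**Figure D1:**
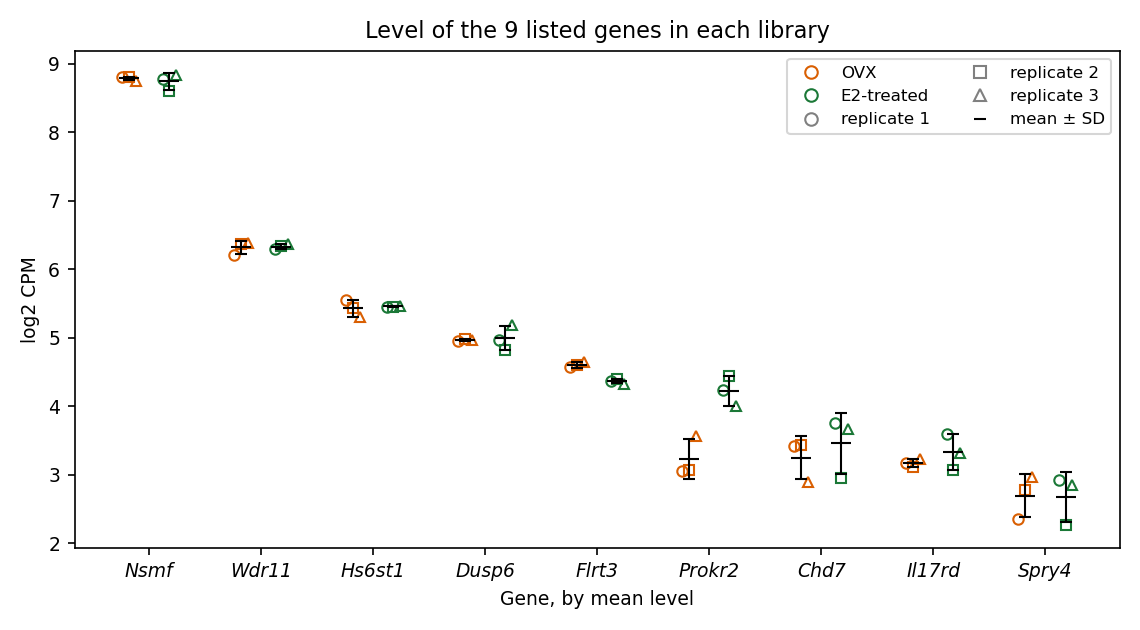
Log2 CPM (y axis) of the 9 listed genes in each of the 3 OVX and 3 E2 libraries (points), with the group mean and SD. *Prokr2* lay between 3.06 and 3.57 in OVX and between 4.00 and 4.44 in E2, *Flrt3* was lower in each E2 library than in each OVX library, and in the other genes the groups overlapped.

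*Prokr2* (ENSMUSG00000050558) mRNA was higher with E2. Its log2 CPM was 3.06, 3.07 and 3.57 in OVX replicates 1, 2 and 3, and 4.24, 4.44 and 4.00 in E2 replicates 1, 2 and 3. Each E2 library was above each OVX library, with the gap set by OVX replicate 3 and E2 replicate 3. The group means were 3.23 ± 0.29 and 4.22 ± 0.22 (SD, n = 3 each), a difference of 0.99 (SE 0.17, 95% interval 0.63 to 1.35) or 1.99-fold, with an adjusted p of 0.0211 in limma. In linear terms the mean was 9.54 CPM in OVX and 18.8 CPM in E2. Of all genes tested, 0.288% were called, and of the 9 listed genes here 1 was. The gene lies on chromosome 2 from 132337733 to 132385447 on the minus strand, and its exons overlap no other annotated gene. In bulk RNA, a change in the number of cells that express *Prokr2* cannot be told apart from a change in its mRNA per cell.

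The call of *Prokr2* was lost in some fits with 1 library left out and in the fit without the mean-variance trend. Leaving out 1 library at a time, the difference was between 0.88 and 1.16. The adjusted p was 0.0990 without OVX replicate 1, 0.0860 without E2 replicate 1 and 0.144 without E2 replicate 2. It stayed under 0.05 without each of the others. Without the mean-variance trend the adjusted p was 0.402, at the same difference, and 0 of all genes were past the threshold. An exact permutation test of the 3 against 3 libraries gave p = 0.1 (2-sided), the smallest this design allows. Groups that do not overlap always give this value, so it adds nothing to the lack of overlap. *Flrt3* had the same p of 0.1 in this test.

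The summed level of 6 genes chosen to mark excitatory forebrain neurons from outside the MeA moved with treatment in the opposite direction. It was 1137, 957 and 880 CPM in OVX replicates 1, 2 and 3, and 725, 668 and 871 CPM in E2 replicates 1, 2 and 3, so the groups did not overlap. *Slc17a7*, the gene of the vesicular glutamate transporter VGLUT1, held 80.2% to 84.3% of this sum and was the only one of the 6 whose own groups did not overlap. The sum of the other 5 was 178, 159 and 156 CPM in OVX and 129, 132 and 149 CPM in E2, again without overlap. All 6 genes had a negative difference, with a median of -0.48 and the smallest, -0.05, in *Tbr1*, and 0 of the 6 were called. The paper names *Vglut1*, that is *Slc17a7*, among the transcripts found in MeA *Kiss1* cells. Whether the 6 genes are expressed in these cells was not tested here. A limma fit chosen after the data were seen took the mean log2 CPM of the 6 genes, each with equal weight, as a covariate. In it the *Prokr2* difference was 0.63 (SE 0.23, adjusted p = 0.997), and 3 of all genes were past the threshold. The covariate itself moved with treatment, so this fit cannot separate the part of these genes from that of E2. The 6 choroid plexus markers were also all negative, with a median of -0.61, but their summed levels overlapped, at 689 to 1078 CPM in OVX and 394 to 1017 CPM in E2. The summed levels of the astrocyte, oligodendrocyte lineage, microglia, and endothelial and mural markers overlapped between groups, and 0 genes of these lists were called. In the direction of *Prokr2*, 5 of 6 genes were positive in each of the astrocyte, oligodendrocyte lineage, and endothelial and mural lists, with medians of 0.13, 0.13 and 0.11, and 2 of 6 microglia genes were. *Pdgfra*, a gene of oligodendrocyte precursors, was at 0.54 with groups that did not overlap (SE 0.11, adjusted p = 0.0838). None of the markers was at a count of 0 in any library. The part of other cell types in the *Prokr2* difference was not tested.

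**Figure D2:**
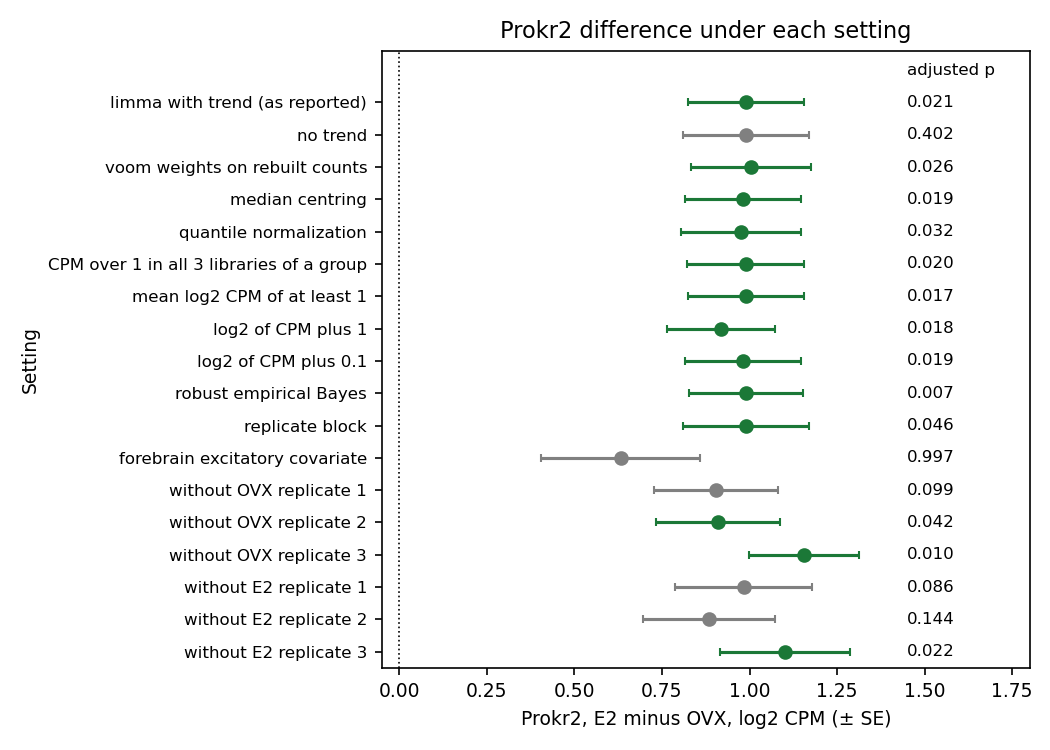
Difference of *Prokr2* (E2 minus OVX, log2 scale, with its SE) in the fit reported and in each of 17 alternatives, in green for fits past the threshold and in grey for the others, and the adjusted p at the right. All differences were positive, from 0.63 to 1.16, and 12 of the 17 alternatives had an adjusted p under 0.05.

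For the rest of the prokineticin pathway, 16 genes were named for the ligand and receptor family, its accessory protein, G proteins, phospholipases and IP3 receptors. Of these, 14 were listed and 0 were called, beside 0.288% of all genes. With so low a share, 0 calls in this list or in those below is not read as a trait of the genes. The median difference of the 14 genes was 0.01, against 0.00 over all genes. The second receptor gene *Prokr1* and the second ligand gene *Prok1* were not listed. *Mrap2*, which encodes an accessory protein of melanocortin and prokineticin receptors, had 5.31 ± 0.15 in OVX and 5.24 ± 0.22 in E2, a difference of -0.07 (SE 0.11, adjusted p = 0.931). The gene of this list with the largest difference was *Plcb4*, a phospholipase C that Gq proteins switch on. Its log2 CPM was 4.99, 5.31 and 5.19 in OVX and 5.41, 5.40 and 5.49 in E2, and its difference was 0.27 (SE 0.09, adjusted p = 0.404).

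The 5 genes whose profile over the 6 libraries lay closest to that of *Prokr2*, by the root mean square gap between mean-centred log2 CPM, were *Lmcd1* (0.104), *Tmem215* (0.169), *Gpr55* (0.170), *Rcn1* (0.171) and *Bard1* (0.172). Their E2 and OVX libraries did not overlap, a property that closeness to *Prokr2* favours. *Rcn1*, which encodes a calcium-binding protein of the endoplasmic reticulum, had a difference of 0.995 (adjusted p = 0.000397), *Lmcd1* one of 0.97 (adjusted p = 0.0189) and *Tmem215* one of 0.70 (adjusted p = 0.0113). *Gpr55*, a receptor for lysophosphatidylinositol, and *Bard1*, the partner of BRCA1, were not called (differences 0.90 and 0.71, adjusted p = 0.422 and 0.724). The mean of *Bard1* was 0.831 CPM in OVX and 1.36 CPM in E2. With the paper's filter of a mean above 1 CPM in either group, *Bard1* was listed only through E2. That favours a positive difference, so its place among the nearest genes is not read as a result.

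Of the 4 FGF modulators, 0 were called. *Flrt3*, a transmembrane protein that binds FGF receptors and latrophilins, was the only other member whose groups did not overlap. Its log2 CPM was 4.57, 4.60 and 4.65 in OVX replicates 1, 2 and 3, and 4.38, 4.40 and 4.33 in E2 replicates 1, 2 and 3. The SD within a group was 0.04 in OVX and 0.03 in E2, and the difference was -0.24 (SE 0.10, 95% interval -0.44 to -0.03), or 0.848-fold, with an adjusted p of 0.50. Groups that do not overlap were found in 13.7% of all genes, and in 2 of the 9 genes here. The gene lies on chromosome 2 from 140650914 to 140671469 on the minus strand.

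*Dusp6*, a phosphatase that removes phosphate from ERK in the cytoplasm, had 4.95, 4.98 and 4.97 in OVX and 4.97, 4.83 and 5.19 in E2. The SD of the OVX libraries was 0.02, the E2 libraries lay on both sides of them, and the difference was 0.03 (95% interval -0.19 to 0.24, adjusted p = 0.974). *Il17rd*, a membrane protein that holds back FGF signaling to ERK, had 3.18, 3.12 and 3.24 in OVX and 3.59, 3.07 and 3.32 in E2. E2 replicate 1 was the highest library and E2 replicate 2 the lowest, and the difference was 0.15 (95% interval -0.20 to 0.51, adjusted p = 0.871). It was 0.021 without E2 replicate 1 and 0.28 without E2 replicate 2. *Spry4*, an inhibitor of receptor tyrosine kinase signaling to ERK, had 2.35, 2.78 and 2.97 in OVX and 2.93, 2.27 and 2.85 in E2. Each group had 1 library well below the other two, and the difference was -0.02 (95% interval -0.51 to 0.47, adjusted p = 0.993). In GRCm38, *Dusp6* lies at chr10:99263231-99267489 (plus strand), *Il17rd* at chr14:27038941-27107286 (plus strand) and *Spry4* at chr18:38586247-38601415 (minus strand).

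The other genes of FGF signaling gave 1 call, where 0.288% of all genes were called. Of 32 genes of the FGF8 and FGFR1 pathway with its ERK cascade and feedback inhibitors, 29 were listed, and their median difference was -0.01. *Fgfr1*, the receptor that KLB, heparan sulfate and FLRT3 act with, was called and higher with E2. Its log2 CPM was 6.87, 6.99 and 7.03 in OVX and 7.50, 7.81 and 7.67 in E2, a difference of 0.70 (SE 0.08, adjusted p = 0.000948), or 1.62-fold. The ligand genes *Fgf8* and *Fgf18* were not listed. The listed paralogs of *Spry4* and *Dusp6* were not called either. The *Spry* paralogs had differences of 0.35 for *Spry1* (SE 0.19, adjusted p = 0.664), 0.05 for *Spry2* (SE 0.12, adjusted p = 0.956) and 0.01 for *Spry3* (adjusted p = 0.997). The *Dusp* paralogs ranged from -0.55 for *Dusp5* (SE 0.19, adjusted p = 0.412), whose groups did not overlap, over -0.34 for *Dusp9* and -0.08 for *Dusp4* (SE 0.23, adjusted p = 0.964), to -0.07 for *Dusp7*. *Dusp5*, *Dusp7*, *Dusp9* and *Spry3*, and *Slc17a7*, *Tbr1* and *Pdgfra* above, were chosen for naming after their values were seen.

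*Hs6st1* encodes an enzyme that adds sulfate to glucosamine in heparan sulfate, a modification that FGF binding uses. Its log2 CPM was 5.55, 5.43 and 5.31 in OVX and 5.45, 5.45 and 5.47 in E2. The E2 libraries were inside the range of the OVX libraries, and the difference was 0.03 (95% interval -0.15 to 0.20, adjusted p = 0.967). Of its 5542 exonic bases, 447 are shared with the antisense gene *Gm37335*, and the libraries were unstranded, so reads there cannot be assigned to one of them. The gene lies at chr1:36068400-36106446 on the plus strand. Of 19 genes of heparan sulfate synthesis and editing, all were listed and 0 were called, with a median difference of 0.00. The other 6-O-sulfotransferase genes had differences of 0.07 (*Hs6st2*, SE 0.08, adjusted p = 0.862) and -0.38 (*Hs6st3*, SE 0.23, adjusted p = 0.711). The largest difference of that list was in *Hs3st1*, a 3-O-sulfotransferase, with 3.91 ± 0.07 in OVX and 4.36 ± 0.04 in E2, a difference of 0.44 (SE 0.11, adjusted p = 0.159).

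*Chd7*, *Nsmf* and *Wdr11* act in the nucleus, at the synapse and in vesicle transport, and none of them was called. *Chd7*, a chromatin remodeler mutated in CHARGE syndrome, had 3.43, 3.44 and 2.89 in OVX and 3.75, 2.95 and 3.67 in E2. OVX replicate 3 and E2 replicate 2 were the low libraries, and the difference was 0.21 (95% interval -0.26 to 0.68, adjusted p = 0.865). It was 0.028 without OVX replicate 3 and 0.46 without E2 replicate 2 (adjusted p = 0.712). *Nsmf*, which encodes Jacob, a messenger from NMDA receptors to the nucleus, had 8.80, 8.80 and 8.75 in OVX and 8.78, 8.61 and 8.83 in E2. Its difference was -0.04 (95% interval -0.18 to 0.09, adjusted p = 0.910). *Wdr11*, a WD-repeat protein that takes part in tethering vesicles at the trans-Golgi and in hedgehog signaling, had 6.21, 6.37 and 6.38 in OVX and 6.30, 6.33 and 6.36 in E2. Its difference was 0.01 (95% interval -0.14 to 0.15, adjusted p = 0.989), and the E2 libraries were inside the OVX range. *Chd7* lies at chr4:8690406-8867659, *Nsmf* at chr2:25054355-25062881 and *Wdr11* at chr7:129591863-129635738, all on the plus strand. Among 17 partners and relatives of these proteins, such as other CHD proteins, NMDA receptor subunits and golgins, 17 were listed and 0 were called, with a median difference of -0.06. The largest of them was *Emx1*, a forebrain transcription factor that is also one of the excitatory neuron markers above, at -0.58 (SE 0.18, adjusted p = 0.316).

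**Figure D3:**
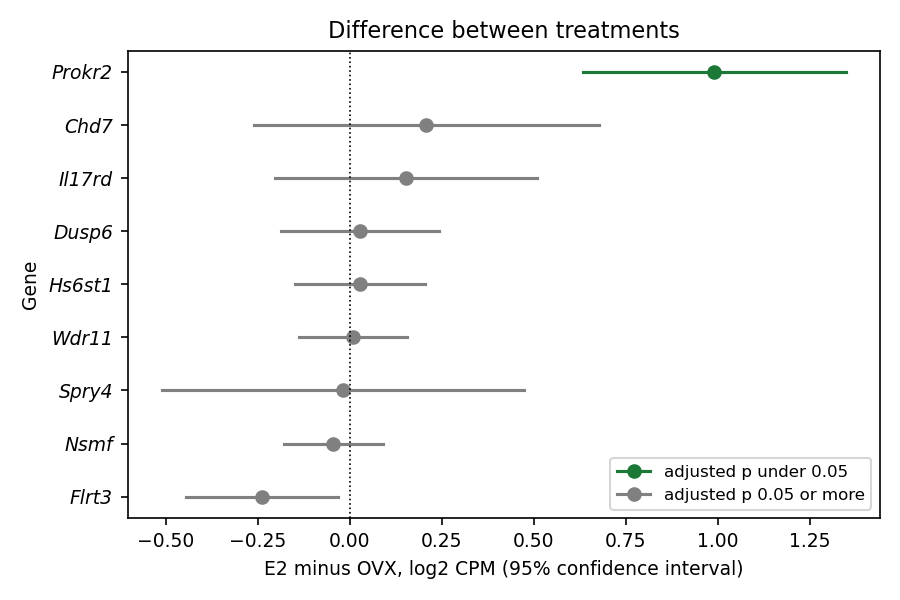
Difference between E2 and OVX (log2 scale, points, with 95% intervals) for the 9 listed genes. *Prokr2* stood at 0.99 and the 8 others between -0.24 and 0.21.

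The intervals bound what could be missed. In 5 of the 9 genes, *Nsmf*, *Wdr11*, *Hs6st1*, *Dusp6* and *Flrt3*, the 95% interval lay within 0.5 of 0 on either side. The interval reached 0.68 in *Chd7* and 0.51 in *Il17rd*, and -0.51 in *Spry4*, so differences of up to these sizes were within it. The median difference of the 9 genes was 0.03, with 6 positive and 3 negative. In *Nsmf*, *Dusp6*, *Spry4*, *Il17rd* and *Chd7* the lowest of the 3 E2 libraries was replicate 2. The share of all genes with this order was not computed, so it is not read as a trait of the members. The choroid plexus, forebrain excitatory and microglia sums were also lowest in E2 replicate 2, at 394, 668 and 92.3 CPM. The endothelial and mural sum there, 157 CPM, was the lowest of the E2 libraries. The neuron sum was highest in E2 replicate 2, at 4346 CPM. The part of these shifts in the gene values was not tested.

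**Figure D4:**
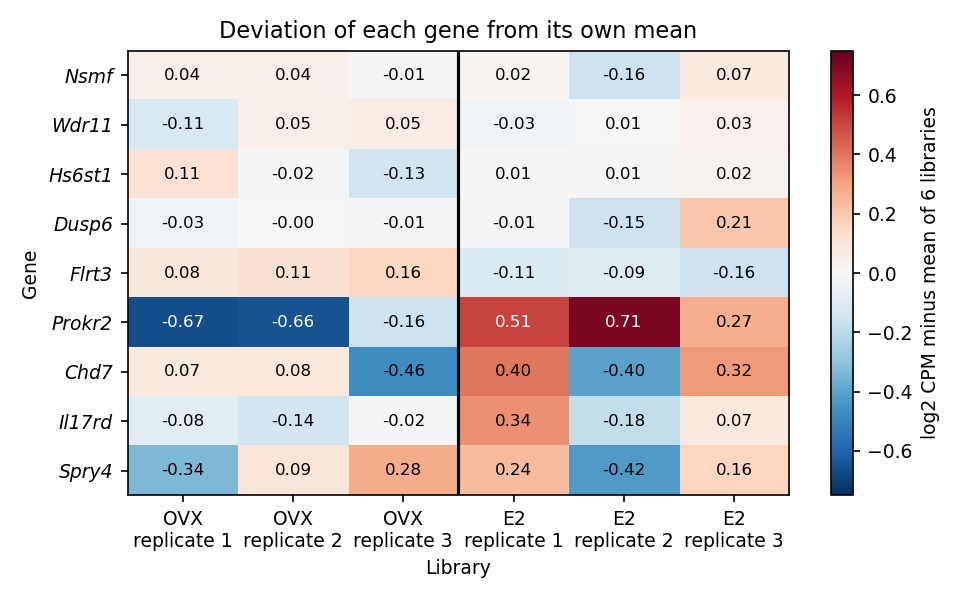
Deviation of each library from the mean of the 6 libraries (log2 CPM) for the 9 listed genes. *Prokr2* split by treatment, higher in E2, and so did *Flrt3*, lower in E2. In *Nsmf*, *Dusp6*, *Spry4*, *Il17rd* and *Chd7* the lowest E2 library was replicate 2, an order whose share over all genes was not computed.

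Levels between genes were compared per kilobase of the longest transcript, as log2 CPM per kilobase averaged over the 6 libraries. *Nsmf* was the highest at 7.20, with *Wdr11* at 3.89, *Hs6st1* at 3.55, *Dusp6* at 3.50, *Flrt3* at 2.50, *Prokr2* at 1.56, *Spry4* at 0.44, *Il17rd* at 0.20 and *Chd7* at 0.00. In CPM per kilobase this was 147 for *Nsmf* and 2.96 for *Prokr2*. The ranges over libraries of *Hs6st1* and *Dusp6* overlapped, as did those of *Spry4* and *Il17rd* and those of *Il17rd* and *Chd7*. *Prokr2* overlapped neither neighbour, with a range of 0.90 to 2.27 against a lowest value of 2.34 for *Flrt3* and a highest of 0.72 for *Spry4*. By mean log2 CPM without length, *Prokr2* ranked 9341 and *Nsmf* 334 of the 13886 genes. All 9 genes had over 1 CPM in all 6 libraries.

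Of 41 other genes linked to hypogonadotropic hypogonadism, 33 were listed, and *Fgfr1* and *Kiss1* were called, both higher with E2. The model of *Kiss1* named above had 2.29, 1.82 and 1.13 in OVX and 3.72, 3.80 and 3.45 in E2, a difference of 1.91 (SE 0.26). The second model of *Kiss1* (ENSMUSG00000116158) had the largest difference of the list, 5.05 (SE 1.09, adjusted p = 0.0942), and its value in OVX replicate 1 is that of a count of 0, so the fitted difference depends on the constant added before the log. The mean of this second model was 0.576 CPM in OVX and 7.71 CPM in E2. The paper kept genes with a mean above 1 CPM in either group, so this model was listed only through E2, which favours a large difference. Reads may be shared between the *Kiss1* models, so their separate levels are uncertain. *Kiss1r*, which encodes the kisspeptin receptor, had 3.12 ± 0.10 in OVX and 3.16 ± 0.15 in E2 (adjusted p = 0.983). The GnRH gene *Gnrh1* and the GnRH receptor gene *Gnrhr* were not listed. In all, 108 of 119 related genes were listed, and limma called 2 higher and 0 lower, beside 0.288% of all genes called. The groups did not overlap in 18 of their 109 gene models, beside the 13.7% of all genes given above.

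**Figure D5:**
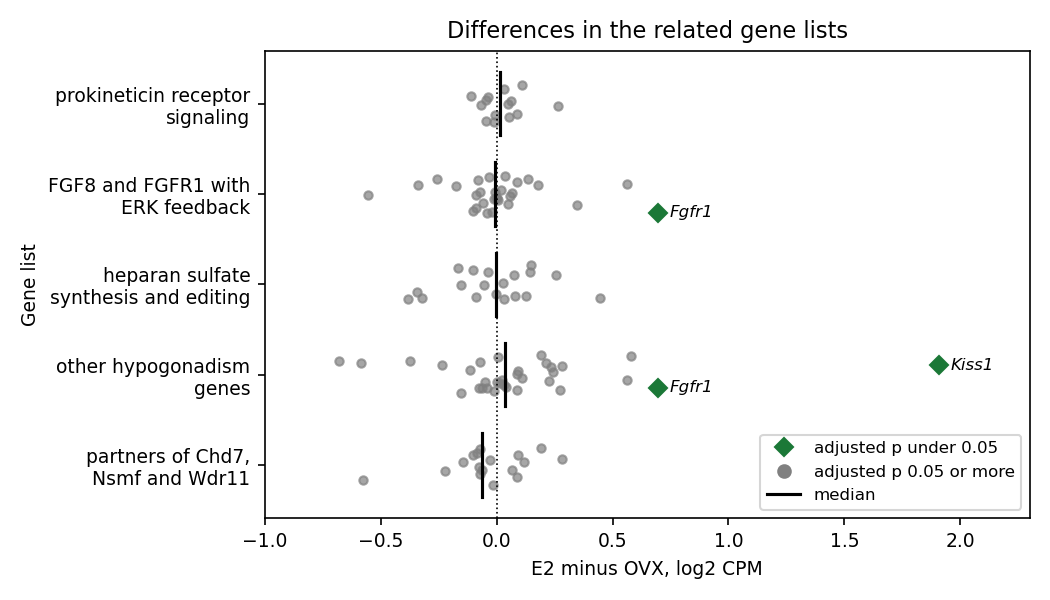
Difference between E2 and OVX (log2 scale) of the listed genes in each of the 5 related lists, with called genes marked. *Fgfr1* (0.70) and *Kiss1* (1.91) are the called genes of the related lists, and the second *Kiss1* model, at 5.05, is beyond the axis and is not drawn.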

How the data were processed

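RNA-seq was made from MeA IP RNA of 3 OVX and 3 E2 pools, with unstranded poly(A) libraries per the labels. The authors trimmed reads with Trimmomatic 0.38, aligned them with STAR 2.6.0a and quantified genes with RSEM on GRCm38. They kept genes above a minimum CPM, and deposited log2 CPM after TMM scaling and voom. The paper also describes a limit to protein-coding regions, which was not checked here. A second table of the authors' comparison (log2 fold change, statistic, p-value and adjusted p-value) was not used. Columns were matched to samples by their labels.

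The deposited log2 values of all 13886 genes were fitted in R 4.3.3 by limma 3.58.1, with treatment as the only term, a mean-variance trend, 2-sided p-values and Benjamini-Hochberg adjustment over all genes. The prior degrees of freedom were 9.55, and the median SE of a difference was 0.11. The fit was tested on simulated data, with a spread between libraries beyond counting error that was set and not taken from these data. Library sizes came from each library's lowest value, taken as a count of 0. Gene positions and lengths came from GENCODE M21 (GRCm38, another release than the authors'), and promoters from RefSeq.

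The members, lists and tests were chosen with earlier results of these data known. All members were named, with the called gene and the largest difference of each related list and the paralogs and receptors set for naming, and the 5 genes nearest to *Prokr2*. Alternatives covered variance model, scaling, filters, pseudocount, a replicate block and each library left out. The covariate fit was added after the data were seen. Replicate numbers were not taken to pair libraries.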

Additional observations from a re-analysis of the deposited data

How the results depend on the processing

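In limma, 40 of all genes were past the threshold. There were 0 without the trend (1017 at an unadjusted p under 0.05), 3 with the forebrain excitatory covariate and 20 to 66 with 1 library left out. The members past the threshold, 1 in the fit reported, were 0 without the trend, 0 with the covariate and 0 to 1 with 1 library left out. The *Prokr2* difference was 0.99 without the trend (adjusted p = 0.402), 0.63 with the covariate, and 0.88 to 1.16 with 1 library left out. In the 9 other planned settings its adjusted p was 0.00678 to 0.0457. The covariate moved with treatment, so its fit cannot separate the part of the marker genes from that of E2. The cause of the lost calls was not tested. No other member was called in any of 136 alternative fits, and 11 of these changed sign. *Wdr11* was at -0.00018 with median centring and -0.052 with the covariate, and *Nsmf* was at 0.020 with the covariate. With 1 library left out the range was -0.046 to 0.038 for *Wdr11*, -0.092 to 0.022 for *Nsmf*, -0.033 to 0.090 for *Hs6st1*, -0.067 to 0.11 for *Dusp6* and -0.19 to 0.19 for *Spry4*, and, with no change of sign, 0.028 to 0.46 for *Chd7*, 0.021 to 0.28 for *Il17rd* and -0.26 to -0.22 for *Flrt3*. With the replicate block 35 genes were past the threshold and *Prokr2* kept its call (adjusted p = 0.0457). Deviations of same-numbered libraries had correlations of -0.02, -0.12 and -0.08 across genes, so the numbers were not taken to pair the libraries.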
